A study of Mus musculus with 9 samples.

Results

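Genes that drive cells into, through and out of mitosis were followed in mouse medulloblastoma and adult cerebellum. The set held 43 genes for mitotic kinases, cyclins, spindle motors, mitotic exit factors and cytokinesis proteins. It was given as a list of gene symbols with no measured value in the rule, but its members were chosen with earlier results of these data known. The groups by role used below are not part of the rule. All 43 symbols were found among the 23360 genes listed for every library, and all 43 were among the 14337 genes abundant enough to be tested.

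RNA depleted of ribosomal RNA was sequenced in 9 libraries: A1G tumours, Ptch1 tumours and cerebellum gave 3 each. Medulloblastoma is a tumour of the cerebellum, and both tumour kinds were labelled as primary tumours of its Sonic Hedgehog (SHH) subgroup, in mice of mixed strain. A1G tumours came from Math1-cre;A1G;Ptch1+/- mice, which carried a Cre recombinase under the Math1 (Atoh1) promoter, active in granule neuron progenitors, A1G, and a heterozygous mutation of Ptch1, which encodes the Hedgehog receptor. Ptch1 tumours came from Ptch1+/- mice, so the heterozygous Ptch1 genotype was shared by both tumour kinds, and cerebellum came from wild-type adult C57BL/6 mice. The series' design text describes the first kind as tumours in which the transcription factor ATOH1 acts together with aberrant SHH signalling. Ages, and whether a group's libraries came from separate animals, are not given, and p-values therefore measure only the spread between these libraries. Strain coincided with tissue, and which 3 libraries shared a sequencing chip is not given, so neither can be told apart from the difference between groups.

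A cell enters mitosis when cyclin A and cyclin B bind Cdk1, Cdc25 phosphatases remove its inhibitory phosphates, and Aurora and Polo-like kinases mature the centrosomes and the spindle. Kinesin motors slide and disassemble spindle microtubules, the anaphase-promoting complex then marks securin and the cyclins for destruction, and a ring of actin and myosin built around the spindle midzone divides the cell. Many of these genes are transcribed mainly in late S, G2 and M phase, held down in resting cells through a short promoter element called the cell cycle genes homology region (CHR), often found near CCAAT boxes. Adult cerebellum consists almost entirely of cells that no longer divide, whereas SHH medulloblastoma is held to arise from dividing granule neuron progenitors.

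The core letters of that element were looked for in RefSeq promoter windows of GRCm38.p6, which run from 250 bases before to 50 bases after an annotated start and were found for 36 of the 43 genes. Stretches of up to 120 bases before the start are shown for 6 genes that hold the letters, 1 or more from each of the groups for entry, spindle, exit and chromosome surface, and then for Melk, which holds none. They read 5′ to 3′ on the gene's strand, and capitals mark TTTGAA, the CHR core (or TTCAAA, the same letters on the other strand), and CCAAT (or ATTGG).
Cdk1 (chr10:69352913-69353032, minus strand): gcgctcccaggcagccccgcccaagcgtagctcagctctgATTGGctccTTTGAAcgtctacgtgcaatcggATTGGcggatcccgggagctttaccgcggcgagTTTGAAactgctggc
Cdc20 (chr4:118437344-118437463, minus strand): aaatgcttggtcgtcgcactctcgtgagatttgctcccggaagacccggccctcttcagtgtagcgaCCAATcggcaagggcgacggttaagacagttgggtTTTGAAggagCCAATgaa
Ube2c (chr2:164769809-164769927, plus strand): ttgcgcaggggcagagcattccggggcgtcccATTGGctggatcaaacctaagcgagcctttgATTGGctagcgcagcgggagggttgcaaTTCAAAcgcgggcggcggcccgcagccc
Espl1 (chr15:102296173-102296292, plus strand): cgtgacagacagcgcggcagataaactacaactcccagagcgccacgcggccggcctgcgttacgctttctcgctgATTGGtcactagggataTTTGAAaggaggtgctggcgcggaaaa
Kif11 (chr19:37376262-37376381, plus strand): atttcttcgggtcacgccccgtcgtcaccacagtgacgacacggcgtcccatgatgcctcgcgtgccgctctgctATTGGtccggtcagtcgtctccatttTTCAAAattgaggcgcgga
Mki67 (chr7:135716380-135716499, minus strand): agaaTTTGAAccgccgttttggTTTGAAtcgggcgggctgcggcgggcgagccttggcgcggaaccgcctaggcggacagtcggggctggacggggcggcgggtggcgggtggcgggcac
Melk (chr4:44300797-44300905, plus strand): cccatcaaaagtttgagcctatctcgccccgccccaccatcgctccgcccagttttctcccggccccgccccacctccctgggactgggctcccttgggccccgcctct
These letters are short and carry no spacing rule, so a match is a description of the sequence and not a measured binding site. Up to 30 bases of a stretch lie in an exon annotated by GENCODE, whose gene starts differ from those of RefSeq. TTTGAA was present on either strand in the windows of 26 of the 36 genes (72.2%), against 20.2% of the 27025 mouse genes with a window and 14.0% of the 10342 tested genes with one. CCAAT was present in 24 (66.7%) against 41.1% of all genes, and both in 22 (61.1%) against 7.97%. Matches of these 2 motifs can share at most 1 base, at an edge.

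The TTTGAA matches lay close to the start. Within 50 bases on either side of it, 22 of the 36 genes (61.1%) held a match, against 5.72% of all genes with a window. Among the genes called higher in tumours with a fitted difference of 16-fold or more, which were 2.82% of all tested genes, 28.6% of the 224 with a window outside the 43 held TTTGAA, and among genes lower in tumours 12.1% of 2243 did. The letters were found in 7 of 8 midzone and cytokinesis genes with a window, in 10 of 13 spindle genes and in 4 of 8 entry genes. They were found in 3 of 19 kinesin genes with roles in transport or interphase (15.8%), near the 14.0% of tested genes. Lists of genes from neighbouring pathways, outside the 43, also had lower shares than the set. The letters were found in 2 of 18 entry and exit regulators (11.1%) and 3 of 16 genes of the anaphase-promoting complex (18.8%). They were found in 6 of 23 spindle pole genes (26.1%) and 2 of 12 contractile ring and abscission genes (16.7%). Of the 36 genes of the set with a window, the 10 without TTTGAA were Birc5, Ccnb1, Cdc25b, Cit, Kif18a, Melk, Nusap1, Plk4, Pttg1 and Tacc3. For 6 genes the RefSeq start lay 270 to 3867 bases inside the GENCODE gene. Their windows therefore do not cover the region before the GENCODE start. Of these, Pttg1 (270 bases) and Cit (378 bases) held no TTTGAA. Kif4 (328), Kif14 (1505), Cdca8 (2394) and Kif2c (3867) are counted among the genes that held it. Kif4 and Cdca8 are also counted among those with a match within 50 bases of the RefSeq start.

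**Figure D1:**
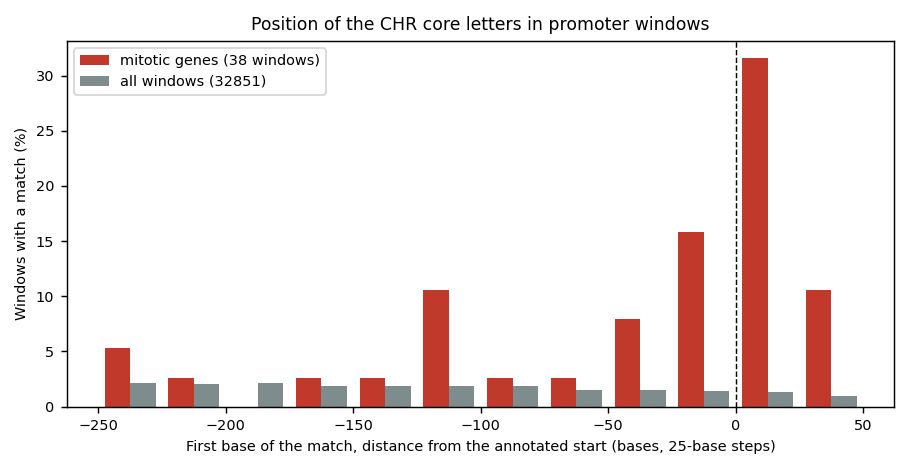
The bars give the share of promoter windows with a TTTGAA or TTCAAA match (y axis, %) by the distance of its first base from the annotated RefSeq start (x axis, 25-base steps), for the 38 windows of the 36 mitotic genes (red) and for all 32851 windows (grey). The tallest red bar covers the first 25 bases after the start, with 31.6% of windows against 1.31% of all windows.

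The libraries held 2350941 to 9290237 fragments assigned to genes, with Ptch1 replicate 2 the deepest. Levels compared between groups are normalised counts-per-million (CPM), from fragments scaled over all 9 libraries together, and 1 A1G library stood apart: A1G replicate 2 was the lowest of the 6 tumours for 32 of the 43 genes, which is taken up with the tumour kinds below. The labelled tissues were checked on marker genes. The 6 granule neuron progenitor markers, among them Atoh1 and Gli1, summed to 1132 to 2797 CPM in A1G tumours, 1901 to 2433 in Ptch1 tumours and 62.0 to 86.9 in cerebellum. Markers of Purkinje cells summed to 371 to 673, 193 to 302 and 8026 to 10253 CPM in the same order, with Pcp2 at 0 in all Ptch1 tumour libraries. The 7 mature granule neuron markers summed to 358 to 1478 CPM, 190 to 1223 CPM and 5656 to 7630 CPM, and the 7 oligodendrocyte markers to 331 to 432, 67.7 to 386 and 7665 to 8183 CPM. All 6 progenitor markers were called higher in tumours than in cerebellum, and all 7 mature granule, 7 Purkinje, 6 interneuron and 7 oligodendrocyte markers and 5 of 6 astrocyte markers lower. In A1G tumours alone, 5 of the 6 progenitor markers were called higher and 6 of the 7 mature granule markers lower. Atoh1 is also named in the design of the A1G tumours, so the progenitor list is not independent of that genotype. Of the 7 microglia and macrophage markers, 3 were called higher in tumours, with sums of 209 to 323 CPM in A1G tumours, 132 to 230 in Ptch1 tumours and 120 to 147 in cerebellum. Markers of T and NK cells stayed at or under 5.59 CPM in every library. The cell types that make up the tissues thus moved with the comparison of tumours and cerebellum, and their part in the results was not tested. In bulk RNA a smaller share of dividing cells and less of a transcript in each dividing cell cannot be told apart.

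Mitotic genes were far more abundant in tumours than in cerebellum. Together the 43 genes took up 0.922%, 0.300% and 0.675% of the fragments of A1G replicates 1, 2 and 3, and 0.861%, 1.04% and 0.899% of those of the Ptch1 libraries. In cerebellum they took up 0.0251%, 0.0220% and 0.0241%. With edgeR (quasi-likelihood test, Benjamini-Hochberg adjustment over the whole table), 41 of 43 were higher in the 6 tumours than in cerebellum at an adjusted p under 0.05, where 20.7% of all tested genes were higher. None was lower, where 21.5% of all tested genes were, and the exceptions were Cit and Pttg1. The median fitted log2 difference was 5.95 over the 43 genes and 0.01 over all tested genes. It was 5.88 with the 2 genes that had no fragment in cerebellum set at their lower bound. In 41 genes every tumour library lay above every cerebellum library, which held for 18.5% of all tested genes.

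The test filter bears on these counts. Of the 43 genes, 24 were under FPKM 1 (fragments per kilobase of transcript and per-million fragments, as deposited) in every cerebellum library and so passed only through the tumours. All 24 were called higher, as were 67.2% of the 628 tested genes in the same position. Of the 19 genes that reached FPKM 1 in a cerebellum library, 17 were called higher, where 18.5% of 13709 such genes were, and their median log2 difference was 4.44.

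**Figure D2:**
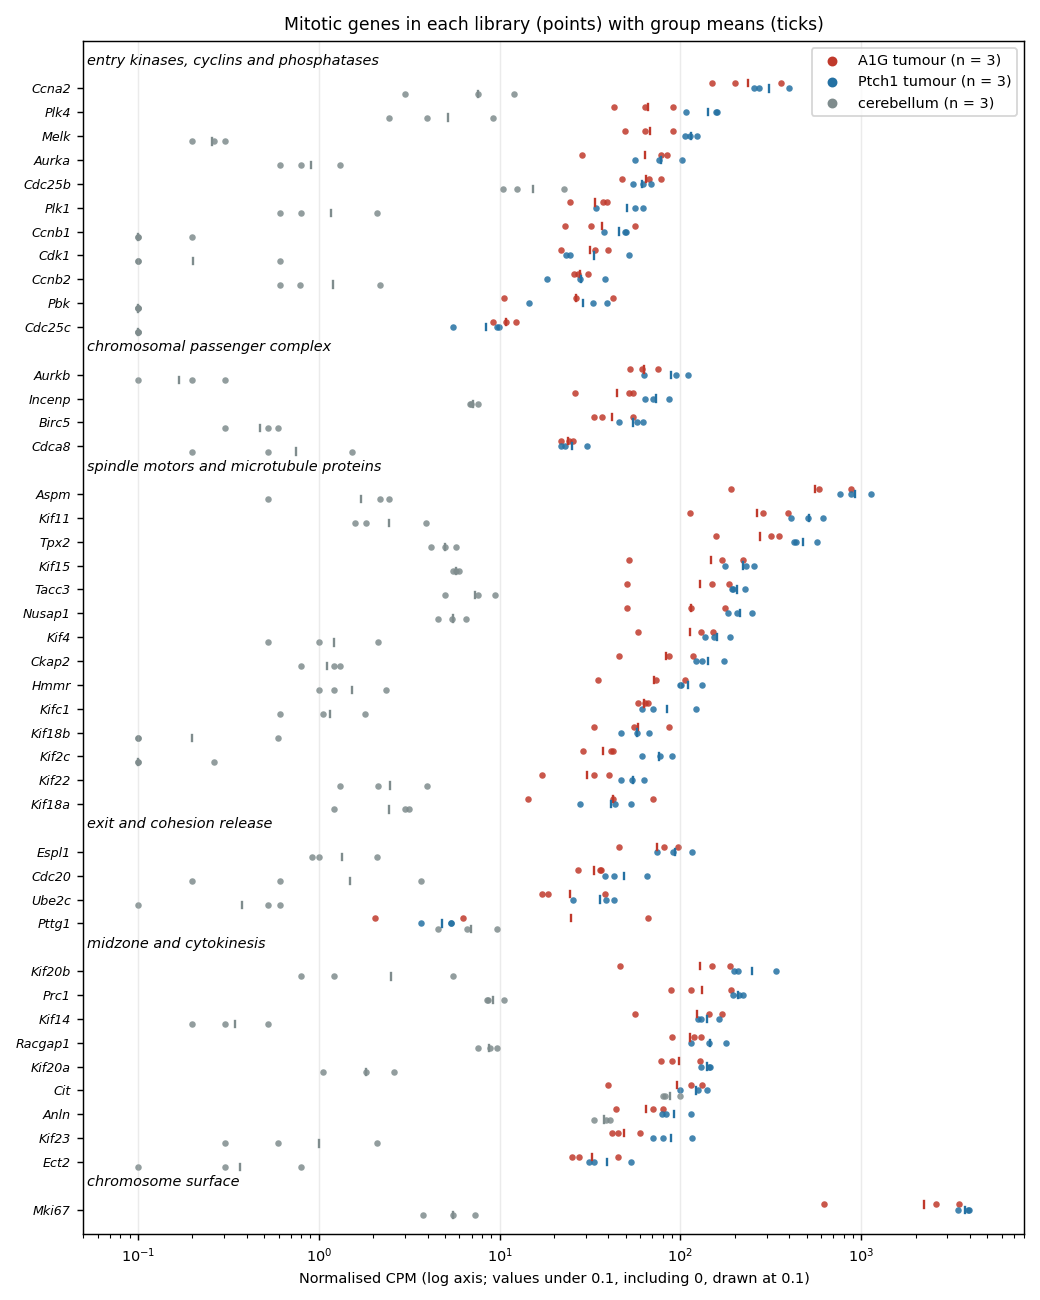
Points give the normalised CPM of each gene (x axis, log scale) in each A1G tumour (red), Ptch1 tumour (blue) and cerebellum library (grey), with ticks at the group means (n = 3), ordered by role. Tumour and cerebellum points are separate in 41 genes and overlap for Cit and Pttg1, and the leftmost red point in many rows is A1G replicate 2.

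Mki67, whose large protein coats mitotic chromosomes and is the antigen of the Ki-67 proliferation stain, was the most abundant of the 43 in tumours. Its gene lies at chr7:135689784-135716361, minus strand (GENCODE M21 on mm10, as for all gene positions here). Mki67 measured 3475, 620.3 and 2597 CPM in A1G tumours 1, 2 and 3, 3433, 3946 and 3913 in Ptch1 tumours and 5.51, 7.3 and 3.79 in cerebellum. Every tumour lay far above cerebellum, and A1G replicate 2 far below the other tumours. The fitted log2 difference between tumours and cerebellum was 9.04 (SE 0.68, adjusted p = 1.16e-06). This 1 gene made up 36.4% to 42.1% of the summed CPM of the 43 in 5 tumour libraries and 21.7% in A1G replicate 2.

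Per length, in FPKM within the tumours, Mki67 stood at 302 and the next genes in order were Ccna2 at 104, Tpx2 at 93.6, Kif11 at 83.6 and Aspm at 76. The spread over the 6 libraries of Ccna2 (58.8 to 148) and Tpx2 (40.2 to 139) overlapped, as did those of the genes that followed them. The lowest were Pttg1 at 10.8, Ect2 at 9.38 and Cdc25c at 5.51 FPKM. The mean of Pttg1 was carried by A1G replicate 2, at 45.7 FPKM, and without that library it was 3.76 FPKM, the lowest of the 43. In cerebellum the order differed: Cit led with 12.7 FPKM, followed by Pttg1 at 7.29, Anln at 7.01, Cdc25b at 5.21 and Prc1 at 3.19, while Pbk and Cdc25c were at 0. The deposited FPKM of tumours and cerebellum were scaled separately, so these are orders within a tissue only.

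All 11 genes for kinases, cyclins and phosphatases of mitotic entry were higher in tumours, with a median log2 difference of 6.23, or of 5.17 with those 2 genes, Pbk and Cdc25c, at their bound. Ccna2 encodes cyclin A2, the partner of Cdk2 in S phase and of Cdk1 at entry. It measured 359, 149.7 and 201 CPM in A1G tumours, 272, 398 and 255 in Ptch1 tumours and 12.1, 7.6 and 3.0 in cerebellum, and no tumour library came near a cerebellum library. The difference was 5.17 (SE 0.50, adjusted p = 7.75e-06). A stretch of 12.5% of the Ccna2 exon bases is shared with Exosc9 on the opposite strand, and no strand setting is stated for the counting.

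Cdk1, the kinase that drives entry, and its partner Ccnb1 (cyclin B1) were almost absent from cerebellum. Cdk1 measured 33.5, 39.9 and 21.8 CPM in A1G tumours and 24.5, 52 and 23.4 in Ptch1 tumours, with 2 fragments in all 3 cerebellum libraries together. The ratio of the pooled fragments per scaled library, tumours over cerebellum, was 226 (95% interval 62.3 to 1865), an exact interval for counting error only. For Ccnb1, with 23.1 to 56 CPM in tumours and 1 fragment in cerebellum, the ratio was 522 (95% interval 93.4 to 20620.4). Ccnb2, the gene of cyclin B2, was higher by a log2 of 4.44 (SE 0.49, adjusted p = 1.87e-05).

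Pbk, a mitotic kinase gene also called TOPK, and Cdc25c, which encodes a phosphatase that activates Cdk1, were without a fragment in cerebellum. Pbk measured 42.4, 10.6 and 26.3 CPM in A1G and 32.7, 39.3 and 14.6 in Ptch1 tumours, at least 36.1-fold above the level of 3 fragments per cerebellum library. Cdc25c measured 9.22, 10.9 and 12.3 CPM in A1G and 5.5, 9.66 and 9.96 CPM in Ptch1 tumours, at least 12.5-fold above that floor. The other phosphatase, Cdc25b (chr2:131186949-131198497, plus strand), was the entry gene with the smallest difference. It measured 78.5, 66.7 and 47.3 CPM in A1G tumours, 54.7, 68.4 and 62.1 in Ptch1 tumours and 10.5, 12.5 and 22.8 in cerebellum, a log2 difference of 2.03 (SE 0.32, adjusted p = 2.63e-04). The groups did not overlap.

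Among the entry kinases, Melk, a kinase gene of dividing progenitors, stood at 91, 49.3 and 63.7 CPM in A1G tumours, 106, 124 and 114 in Ptch1 tumours and 0.263, 0.304 and 0.20 in cerebellum, where 3 fragments in all were found. The pooled ratio was 404 (95% interval 138 to 1958). Plk4, whose product starts centriole duplication, was less far apart, at 91, 43 and 64.2 CPM in A1G tumours, 157, 159.7 and 108 in Ptch1 tumours and 9.19, 2.43 and 3.99 in cerebellum, differing by 4.20 (SE 0.45, adjusted p = 1.55e-05). Aurka, the spindle pole Aurora kinase gene, and Plk1, the main Polo-like kinase gene, were higher by 6.23 and 5.12 on the log2 scale. Their tumour levels ran from 28.7 to 103 and from 24.7 to 62.1 CPM.

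The chromosomal passenger complex corrects the attachment of chromosomes to the spindle and later moves to the midzone. All 4 of its genes were higher in tumours, with a median log2 difference of 5.81. Its kinase gene Aurkb (chr11:69045647-69051664, plus strand) measured 74.8, 53 and 61.7 CPM in A1G tumours, 62.7, 94.3 and 111 in Ptch1 tumours and 0, 0.304 and 0.20 in cerebellum, from 2 fragments, and its pooled ratio was 481 (95% interval 133 to 3973). The scaffold gene Incenp measured 52.3, 26.2 and 54.7 CPM in A1G tumours, 63.7, 70.2 and 87 in Ptch1 tumours and 6.83, 6.99 and 7.59 in cerebellum, differing by 2.99 (SE 0.32, adjusted p = 1.75e-05). The 3 cerebellum libraries were close together for Incenp, and far below the lowest tumour. Birc5 (survivin) and Cdca8 (borealin), the subunits that bind chromatin, were higher by a log2 of 6.52 and 5.10. Cdca8 was the steadiest of the 43 genes across tumours, with a highest library 1.40-fold above the lowest (21.8 to 30.6 CPM).

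All 14 spindle motor and microtubule protein genes were higher in tumours, with a median log2 difference of 6.03 and a lowest of 3.98. Tpx2, which brings Aurora A to the spindle and starts microtubule growth near chromosomes, had the highest FPKM of the group. It measured 351, 158 and 317 CPM in A1G tumours, 438, 572 and 428 in Ptch1 tumours and 4.2, 5.78 and 4.99 in cerebellum, a difference of 6.18 (SE 0.39, adjusted p = 3.37e-07). Kif2c (chr4:117159639-117182639, minus strand), whose kinesin takes microtubules apart at kinetochores, measured 41.3, 29 and 42.4 CPM in A1G tumours, 61.4, 90.4 and 77 in Ptch1 tumours and 0.263, 0 and 0 in cerebellum. With 1 fragment in cerebellum, the pooled ratio was 790.3 (95% interval 142 to 31237). Every Ptch1 tumour lay above every A1G tumour for both genes.

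Aspm, a spindle pole gene whose loss causes microcephaly, measured 884, 191 and 586 CPM in A1G tumours, 767, 1134 and 880.0 in Ptch1 tumours and 0.525, 2.43 and 2.2 in cerebellum. The difference was 8.67 (SE 0.68, adjusted p = 1.73e-06). Kif11, the motor that pushes the spindle poles apart, rose by a log2 of 7.23 (SE 0.55, adjusted p = 1.37e-06) and Kif15, which can act in its place, by 4.96 (SE 0.48, adjusted p = 7.29e-06). Kif18b, a motor at microtubule tips, had 3 fragments in cerebellum and a pooled ratio of 238 (95% interval 81.4 to 1158), and its relative Kif18a, which limits chromosome movement at the metaphase plate, differed by 4.05. Kif22, a motor that pushes chromosome arms outward, had the smallest difference of the group, 3.98 (SE 0.44, adjusted p = 2.26e-05). It measured 40.5, 17.2 and 33.3 CPM in A1G tumours, 46.9, 62.6 and 54 in Ptch1 tumours and 1.31, 2.13 and 3.99 in cerebellum. The remaining members rose by log2 values from 4.47 to 6.80: Tacc3, Nusap1, Hmmr and Ckap2, which bind or stabilise spindle microtubules, the minus-end motor Kifc1, and the chromosome-bound motor Kif4.

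Of the 4 genes for mitotic exit and the release of sister chromatids, 3 were higher in tumours. Ube2c encodes the ubiquitin-conjugating enzyme of the anaphase-promoting complex. It measured 18.4, 38.4 and 17.3 CPM in A1G tumours, 25.4, 43.1 and 38.7 in Ptch1 tumours and 0.525, 0.608 and 0 in cerebellum, a difference of 6.33 (SE 0.66, adjusted p = 1.31e-05). Here A1G replicate 2 was the highest A1G tumour, and 22.8% of the Ube2c exon bases are shared with Tnnc2 on the opposite strand. Cdc20, which activates the complex, rose by a log2 of 4.77 (SE 0.63, adjusted p = 8.33e-05) and Espl1, the gene of separase, by 5.94 (SE 0.44, adjusted p = 1.06e-06).

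Pttg1 (chr11:43420250-43426251, minus strand), which encodes securin, the inhibitor of separase, did not follow the others. It measured 6.27, 66.4 and 2.06 CPM in A1G tumours, 3.66, 5.39 and 5.36 in Ptch1 tumours and 9.72, 4.56 and 6.59 in cerebellum. Apart from A1G replicate 2, the tumour values lay among or below those of cerebellum, and A1G replicate 2 alone lay above all of them. The difference between tumours and cerebellum was 0.66 (SE 0.80, adjusted p = 0.538), and without A1G replicate 2 it was -0.63 (adjusted p = 0.321). Tumour levels of this gene spanned 32.3-fold, the widest of the 43.

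Of the 9 genes of the midzone and of cytokinesis, 8 were higher in tumours, with a median log2 difference of 5.95. Prc1, which bundles antiparallel microtubules of the midzone, measured 192, 89.2 and 115 CPM in A1G tumours, 210.0, 221 and 196 in Ptch1 tumours and 8.67, 8.51 and 10.6 in cerebellum, a difference of 4.16 (SE 0.32, adjusted p = 1.58e-06). Kif14, a motor that recruits citron kinase to the midbody, measured 171, 56.5 and 145 CPM in A1G tumours, 125, 164 and 131 in Ptch1 tumours and 0.525, 0.304 and 0.20 in cerebellum, differing by 8.50 (SE 0.57, adjusted p = 5.37e-07). Both genes were separate between tumours and cerebellum, and per length cerebellum held 3.19 FPKM of Prc1 and 0.0388 FPKM of Kif14.

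The motors Kif20a, Kif20b and Kif23 rose by log2 values of 5.95, 6.16 and 6.01. Kif20a shares 29.3% of its exon bases with Cdc23 on the opposite strand, the largest overlap among the 14 genes that have one. Racgap1 forms the centralspindlin complex with the Kif23 motor and differed by 3.89, and Ect2, the exchange factor that this complex calls to the cell middle, by 6.37.

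Anln and Cit were the cytokinesis genes with high cerebellar levels. Anln (chr9:22332012-22389188, minus strand), whose protein anillin links actin, myosin and septins in the ring, measured 80.0, 44 and 70.3 CPM in A1G tumours, 78.8, 115 and 83.5 in Ptch1 tumours and 38.9, 33.4 and 40.9 in cerebellum. The groups did not overlap, and the difference was 1.03 (SE 0.26, adjusted p = 0.00669). Cit (chr5:115845278-116008947, plus strand), the gene of citron kinase of the midbody, which is also known to give a shorter neuronal form without the kinase domain, measured 132, 39.6 and 114 CPM in A1G tumours, 99.8, 125 and 141 in Ptch1 tumours and 82.5, 80.3 and 99.8 in cerebellum. Tumour and cerebellum values of Cit overlapped, with A1G replicate 2 below every cerebellum library, and the difference was 0.30 (SE 0.33, adjusted p = 0.492). The deposited values are per gene and do not separate the forms of Cit.

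Both tumour kinds were then set against cerebellum in turn, and these comparisons share the 3 cerebellum libraries. In A1G tumours 40 of 43 genes were higher than in cerebellum, against 16.3% of all tested genes, with a median log2 difference of 5.68 (5.57 with genes at 0 at their bound) and with Anln, Cit and Pttg1 as the exceptions. In Ptch1 tumours 41 of 43 were higher, against 20.2% of all tested genes, with a median of 6.20 (6.10 likewise) and with Cit and Pttg1 as the exceptions. No gene of the set was called lower in either, against 16.1% and 19.7%. Anln differed by 0.78 (SE 0.29, adjusted p = 0.0579) in A1G and by 1.29 (SE 0.29, adjusted p = 0.00375) in Ptch1 tumours, and without A1G replicate 2 its A1G value was 0.99 (adjusted p = 0.0151). Pttg1 differed by 1.85 in A1G and -0.53 in Ptch1 tumours, neither past the threshold (adjusted p = 0.138 and 0.676). Its A1G value was -0.73 without A1G replicate 2 and 2.38, past the threshold with an adjusted p of 0.0332, without A1G replicate 3.

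Between the tumour kinds, no gene of the set passed the test. At an adjusted p under 0.05, 0 of 43 were called by edgeR, where 0.0139% of all tested genes were. By DESeq2 0 were called, where 0.746% of all tested genes were higher and 0.391% lower, and by limma on log2(FPKM + 1) 0, where 0.0% were. At an unadjusted p under 0.05, 10 of the 43 were lower in A1G tumours by edgeR, where 4.98% of all tested genes were, and 1 was higher, Pttg1, where 5.66% were. The fitted difference was below 0 in 38 of 43 genes, against 48.3% of all tested genes, with a median log2 of -0.50 against 0.02 over all. In 15 genes every A1G library lay below every Ptch1 library, which held for 8.84% of all tested genes, and in none above, which held for 6.69%. The 15 were the exit gene Cdc20, the kinase genes Melk and Plk4, Incenp, the spindle genes Ckap2, Kif11, Kif22, Kif2c, Nusap1, Tacc3 and Tpx2, and the cytokinesis genes Kif20a, Kif20b, Kif23 and Prc1.

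**Figure D3:**
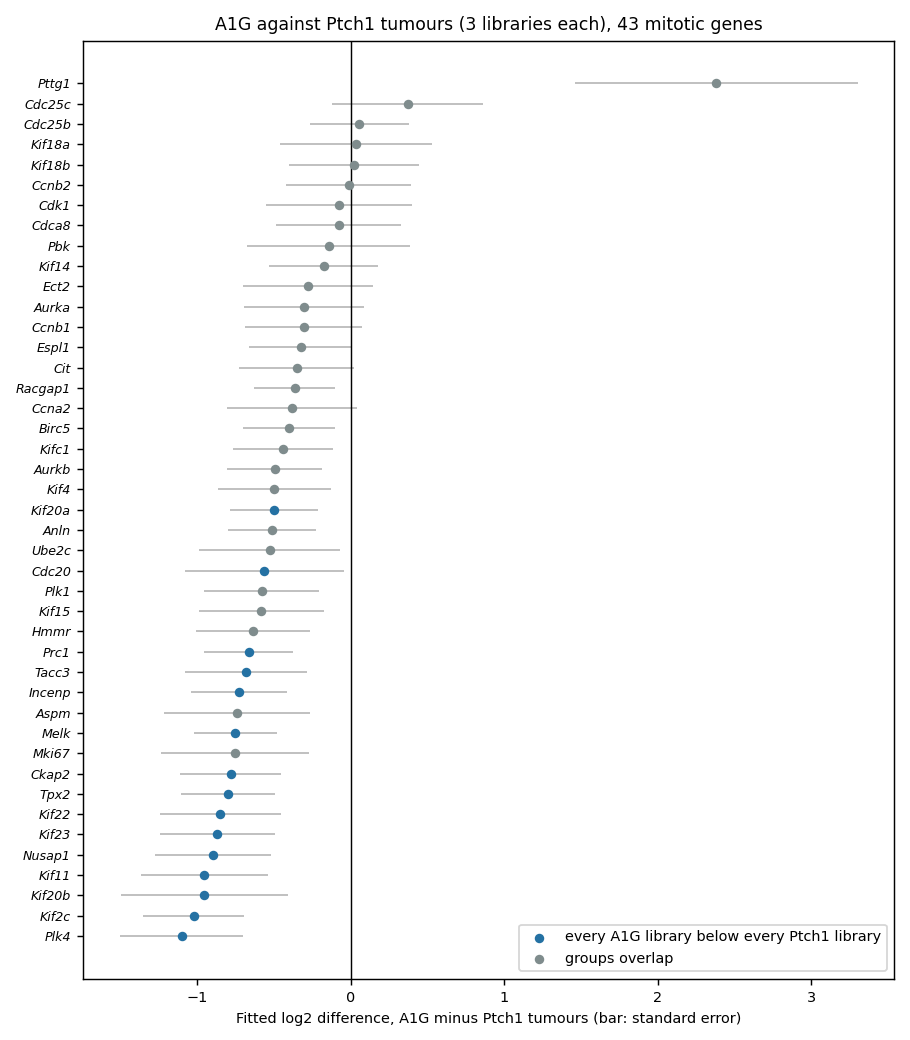
Points give the fitted log2 difference between A1G and Ptch1 tumours (x axis, n = 3 each) for each of the 43 genes (y axis, sorted), with bars of 1 standard error. Blue marks the 15 genes in which every A1G library lay below every Ptch1 library. Of the 43 points, 38 lie below 0, and no gene passed the adjusted threshold.

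The 5 genes with the smallest p were Kif2c, Melk, Plk4, Tpx2 and Pttg1. Kif2c measured 41.3, 29 and 42.4 CPM in A1G and 61.4, 90.4 and 77 CPM in Ptch1 tumours. The log2 difference was -1.02 (SE 0.33, adjusted p = 0.331). Melk differed by -0.75 (SE 0.27, adjusted p = 0.373), Plk4 by -1.10 (SE 0.40, adjusted p = 0.374) and Tpx2 by -0.80 (SE 0.31, adjusted p = 0.396), with the library values given above. For these 4 genes the kinds were separate in all 6 libraries, with A1G below Ptch1. Pttg1 had a difference of 2.38 (SE 0.92, adjusted p = 0.397) with overlapping groups, and of -0.19 without A1G replicate 2. Genes near 0 included Ccnb2 (-0.01), Cdk1 (-0.08), Cdca8 (-0.08) and Cdc25b (0.06). With 3 libraries a kind the standard errors of the 43 differences ran from 0.26 to 0.92, so a missed threshold does not show that the kinds had the same level.

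The count of lower genes changed most when A1G replicate 2 was left out. Without it 1 of the 43 genes was lower at an unadjusted p under 0.05, where 5.78% of all tested genes were, the median log2 was -0.31, and 34 genes were below 0. Without A1G replicate 1 the count was 18, where 5.06% of all tested genes were lower, and the median was -0.70. Without Ptch1 replicate 2, the deepest library, the count was 3, where 3.83% of all tested genes were lower, and the median was -0.36. Leaving out A1G replicate 3 gave 5 (3.95% of all tested genes), Ptch1 replicate 1 gave 6 (3.49%), and the third Ptch1 library gave 8 (4.80%). The median log2 was below 0 in each of these.

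A marker list also moved with the tumour kinds. The summed level of the 7 Purkinje markers was higher in every A1G tumour (371 to 673 CPM) than in any Ptch1 tumour (193 to 302 CPM). Of the 7 markers only Calb1 was called by edgeR, higher in A1G tumours by a log2 of 3.81 (SE 0.40, adjusted p = 0.00627). It stood at 14, 24 and 14 CPM against 1.83, 1.01 and 0.766 in Ptch1 tumours, and was 1 of the 2 genes called over the whole table. Its levels in cerebellum were 548 to 746 CPM. The part of the Purkinje markers in the lower mitotic levels of A1G tumours was not tested.

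In A1G replicate 2 the median gene stood at 0.494 of the mean of the other 5 tumours, and 6 of the 43 were above that mean. The lowest was Mki67 at 0.179 and the highest Pttg1 at 14.6. The summed CPM of the 43 was 8764, 2854 and 6530 in A1G tumours 1, 2 and 3, and 8665, 10843 and 9301 in Ptch1 tumours. Ptch1 replicate 2 was the highest of the 6 tumours for 28 genes. In A1G replicate 2 the granule neuron progenitor markers were at their lowest among tumours, at 1132 CPM against 1901 to 2797 in the others, and the mature granule neuron markers at their highest, at 1478 CPM against 190 to 1453. The mature granule neuron markers were nearly as high in A1G replicate 3 (1453 CPM) and Ptch1 replicate 3 (1223 CPM). In those libraries the summed CPM of the 43 was 6530 and 9301. The part of these 2 marker lists in the lower mitotic levels was not tested.

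Transcript length also moved with the values of A1G replicate 2. Across the 43 genes, its log2 difference from the other 5 tumours had a Pearson correlation of -0.55 with the log2 length of the longest annotated transcript. The Spearman correlation with that length was also -0.55. The 28 genes with transcripts of up to 4000 bases had a median log2 of -0.88 and the 15 longer ones -1.38. In the other 5 tumour libraries the Pearson correlation with log2 length ran from 0.18 to 0.40. Each of these was compared with a mean that included A1G replicate 2, so the values are not independent of that library. Over all tested genes with a length, A1G replicate 2 showed a median log2 of 0.20 for transcripts of up to 1000 bases and of -0.15 for those over 8000 bases, with a Spearman correlation of -0.07 over 13433 genes. In the other 5 tumours this correlation over all genes ran from -0.17 (Ptch1 replicate 2) to 0.22 (A1G replicate 3), so a length trend over all genes was not particular to A1G replicate 2. These correlations are across genes of 1 library, which are not independent replicates, and the part of length in the result was not tested.

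**Figure D4:**
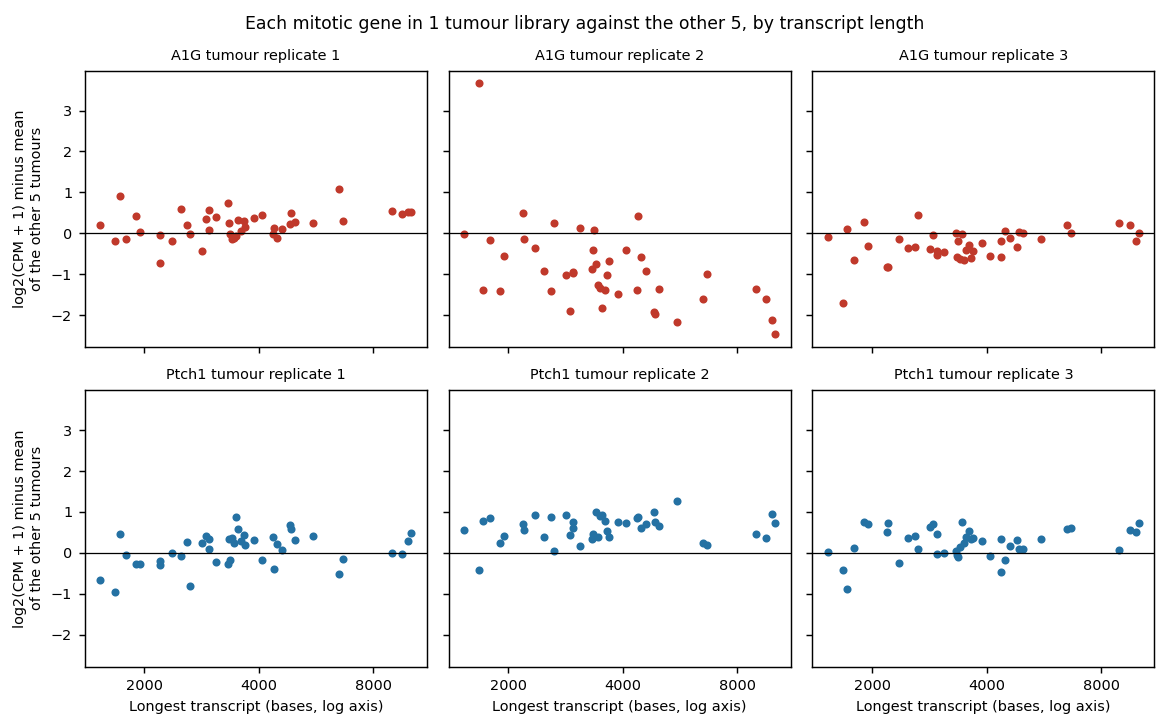
Each panel plots, for 1 tumour library, the log2(CPM + 1) of each of the 43 genes minus its mean in the other 5 tumours (y axis) against the length of its longest transcript (x axis, bases, log scale). Most points of A1G replicate 2 lie below 0, further down for longer transcripts, and the single high point there is Pttg1.

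Spread between tumours differed from gene to gene. The median coefficient of variation over the 6 tumours was 34.4%. The highest tumour was more than 4-fold above the lowest in 9 genes and less than 2-fold in 5. Kif18a, with 70.8, 14.3 and 42.4 CPM in A1G and 27.7, 43.5 and 53.3 CPM in Ptch1 tumours, had its highest value in A1G replicate 1 and its lowest in A1G replicate 2.

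Genes of neighbouring pathways were counted in the same fit, where 20.7% of all tested genes were higher in tumours and 21.5% lower, with a median log2 of 0.01. Of 20 tested entry and exit regulators outside the set, 13 were higher (65.0%) and 2 lower, with a median log2 of 1.36. Cdk2, the S phase kinase gene, measured 42.9 ± 10.4 CPM (SD, n = 6) in tumours and 1.54 ± 0.243 CPM (SD, n = 3) in cerebellum, a difference of 4.76 (SE 0.39, adjusted p = 2.32e-06). Plk5, a Polo-like gene of non-dividing neurons, fell, at -4.24 (SE 0.64, adjusted p = 2.16e-04), so the list was not confined to genes of dividing cells. The other lower gene was Cdk5, named after its value was seen, at -1.11 (SE 0.31, adjusted p = 0.0129). Ensa, a substrate of the Greatwall kinase and the most abundant of the list in both tissues, had a difference of -0.11 (SE 0.29, adjusted p = 0.784).

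Of 17 subunits and regulators of the anaphase-promoting complex, 8 were higher (47.1%, against 20.7% of all tested genes) and none lower (against 21.5%), with a median of 0.68. Fbxo5, whose product Emi1 inhibits the complex, rose by 4.02 (SE 0.61, adjusted p = 2.26e-04) and Ube2s, the gene of its chain-extending enzyme, by 2.05 (SE 0.26, adjusted p = 5.13e-05). The small subunit gene Anapc13 had a difference of -0.02 (SE 0.47, adjusted p = 0.981).

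Of 29 spindle pole and microtubule nucleation genes, 20 were higher (69.0%, against 20.7% of all tested genes) and 1 lower (3.45%, against 21.5%), with a median of 1.03. Dlgap5, which stabilises spindle fibres, rose by 8.79 (SE 0.49, adjusted p = 1.72e-07) and Numa1, which anchors the poles, by 0.96 (SE 0.24, adjusted p = 0.00578). Clasp2, which stabilises microtubules in interphase as well as mitosis, fell, at -0.61 (SE 0.20, adjusted p = 0.0293), while the microtubule polymerase gene Ckap5 had a difference of 0.13 (SE 0.25, adjusted p = 0.711).

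Of 16 contractile ring and abscission genes, 6 were higher (37.5%, against 20.7% of all tested genes) and 4 lower, with a median of 0.43. The 4 of 16 lower were a share close to the 21.5% of all tested genes. Shcbp1, a midbody gene without a fragment in cerebellum, measured 32.2 ± 12.1 CPM (SD, n = 6) in tumours. Rock2, a kinase gene of actomyosin contraction, fell, at -0.89 (SE 0.28, adjusted p = 0.0234), as did the septin gene Sept7, at -0.78 (SE 0.24, adjusted p = 0.0196).

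Of 24 kinesin genes with roles in transport or interphase, 2 were higher (8.33%, against 20.7% of all tested genes) and 13 lower (54.2%, against 21.5%), with a median of -0.73. Kif7, a regulator of Hedgehog signalling in the cilium, rose by 2.57 (SE 0.39, adjusted p = 2.32e-04). Kif26b fell, at -4.36 (SE 0.42, adjusted p = 6.80e-06), as did the kinesin light chain gene Klc1, at -1.14 (SE 0.21, adjusted p = 8.87e-04). The 12 kinesins of the set, motors of the spindle or the midzone, were all called higher. Between A1G and Ptch1 tumours no gene of the 5 lists passed edgeR's adjusted threshold, where 0.0139% of all tested genes did. By DESeq2 4 of the 106 did, where 0.746% of all tested genes were higher and 0.391% lower. Named after their values were seen, on the log2 scale Dlgap5, Sept7 and Chmp4b were lower in A1G tumours, at -1.18, -1.11 and -0.90, and Kif26b higher, at 1.88.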

How the data were processed

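Per the labels' protocols, the Ion Proton instrument read barcoded libraries of ribosome-depleted total RNA. Bowtie 0.12.2 and mm10 are named, without their roles, per the submitters' processing notes. Per the file headers, the deposited expected counts are raw fragments per gene, the signal columns are those fragments times 1 factor per library, and the authors' FPKM values are built from them. From 1147 to 1440 genes per library had a count that was not whole (tolerance 1e-06).

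Counts were rounded. Genes that reached FPKM 1 in 3 or more libraries were tested with edgeR 4.0.16 (TMM scaling, 1 mean per group, quasi-likelihood test, R 4.3.3), and p-values were adjusted over all 14337. CPM used the TMM library sizes. Each SE of an edgeR difference is the size of that log2 difference over the root of its quasi-likelihood F statistic. Alternatives were other scalings and filters, DESeq2 1.42.0, limma 3.58.1 on log2(FPKM + 1) and log2(FPKM + 0.1), a replicate block and leaving out each library. The fits were tested on simulated data. A floor of 3 fragments per library stands for 0, and 95% intervals cover counting error only. Gene positions came from GENCODE M21 and promoter windows from RefSeq GRCm38.p6.

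Members and lists were chosen with earlier results of these data known. All 43 genes could be named. Library values were given for those with the highest tumour FPKM and the largest and smallest difference in each role, the 5 highest in cerebellum and the 5 with the smallest p between tumour kinds. Of the other lists, the largest rise and fall and the most abundant genes were named. Further members are named from the same table, chosen after their values were seen.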

Additional observations from a re-analysis of the deposited data

How the results depend on the processing

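The count of the 43 genes called higher than cerebellum stayed at 41 for all tumours and for Ptch1 tumours, and at 40 or 41 for A1G tumours, under every alternative run: median-of-ratios and deposited scaling factors, no filter and a stricter filter of FPKM 5, DESeq2, limma, a replicate block, and each library left out. The count between tumour kinds stayed at 0 under all of these and with the 6 tumour libraries alone. The deposited values of tumours and cerebellum were scaled separately. The settings with deposited factors or FPKM carry that scaling into the comparisons with cerebellum. With the deposited factors the median log2 difference for all tumours was 5.69, against 5.95 in the main fit. The median log2 difference fell to 4.06 for all tumours, 3.69 for A1G and 4.43 for Ptch1 tumours with limma on log2(FPKM + 1), a scale that shrinks the difference of genes near 0. Leaving out 1 library gave medians from 5.70 to 6.31 for all tumours, 5.40 to 5.99 for A1G and 6.07 to 6.56 for Ptch1 tumours, each highest without cerebellum replicate 1. Over the 5 neighbouring lists, the genes called in either direction, higher or lower in tumours than in cerebellum, were 69 of 106. This count in either direction ran from 50 to 73 under the alternatives. With the stricter filter it was 65, of 101 tested genes.

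Between tumour kinds the sign changed under 1 or more alternatives for 12 of the 43 genes, Pttg1 and Cit among them, and the number below 0 ran from 33 without Ptch1 replicate 2 to 41 without A1G replicate 1 or Ptch1 replicate 1. Against cerebellum the sign changed for Pttg1 and Cit, which were past the threshold only in 1 case, Pttg1 in A1G tumours against cerebellum without A1G replicate 3 (2.38, adjusted p = 0.0332). Pttg1 in all tumours against cerebellum was -0.26 and -0.18 with limma at pseudocounts 0.1 and 1, and -0.63 to 0.97 with 1 library left out. Pttg1 ran from -0.73 to 2.38 in A1G tumours against cerebellum and from -0.19 to 2.92 between tumour kinds. Cit in A1G tumours against cerebellum was -0.14 with the deposited scaling factors and -0.19 to 0.49 with 1 library left out. The cause was not tested. Over all genes, the count called between tumour kinds was 2 by edgeR, 163 by DESeq2, 81 without the filter, 0 by limma on log2(FPKM + 1) and 0 with the tumours alone.

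The replicate numbers were not taken to pair the samples. Correlations of deviations from the group mean ran from -0.06 to 0.20 between same-numbered libraries and from -0.23 to 0.22 between differently numbered ones. With a replicate block the counts were 41, 40, 41 and 0, and the median between tumour kinds was -0.52. In that fit 10 of the 43 genes were lower in A1G tumours at an unadjusted p under 0.05, where 4.81% of all tested genes were. Depth limits the low end: in cerebellum 3 fragments are 0.599 to 0.912 CPM, and 8 of the 43 genes had 3 fragments or fewer over all 3 cerebellum libraries.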
